A study of Rattus norvegicus with 14 samples.

Results

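The genes of the skeletal muscle sarcomere were followed through 11 rat peritoneal mesotheliomas and 3 control peritoneal tissues. The list held 43 genes, of which 42 had a probe set annotated to that gene alone, out of 14217 genes with such a probe set on the array. Each gene is represented by 1 probe set, the one with the highest mean log2(signal + 1) over the 14 arrays. Mylpf, which encodes a fast regulatory myosin light chain, had no probe set of its own and was not analysed here.

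The tumors came from male Wistar rats that had received 1 intraperitoneal injection of multiwalled carbon nanotubes (MWCNTs) or of amosite asbestos. There were 2 tumors induced by MWCNT B, 3 by MWCNT C, 3 by MWCNT D and 3 by amosite, and by histology 5 were sarcomatoid, 3 biphasic and 3 epithelioid. The controls were tumor-free peritoneal tissues of 3 male Wistar rats, called sham-treated in the sample labels and untreated in the methods of the study. The injected materials were suspended in artificial lung medium, and the age of the animals at sampling is not given in the sources used here. Each sample was run on 1 Affymetrix GeneChip rat genome array. RNA came from bulk tumor and bulk tissue, so that fewer muscle fibers and less muscle RNA per fiber cannot be told apart. Inducer and tumor type were partly mixed, since only the sarcomatoid type occurred under every inducer. The number of arrays limits the precision of every value.

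A sarcomere is the contractile unit of a muscle fiber. Thin filaments of actin, tropomyosin and troponin slide along thick filaments of myosin, titin spans the unit from the Z-disc, where thin filaments are anchored, to the M-band, where thick filaments are linked, and nebulin runs along the thin filament. Many sarcomere proteins exist as fast, slow and developmental isoforms, each from its own gene, and the set of isoforms differs between fast fibers, slow fibers and fibers that are forming or regenerating. The parietal peritoneum lies on the muscles of the abdominal wall. Some of these genes, the tropomyosins above all, also give rise to transcripts used in nonmuscle cells, through separate start sites and alternative exons.

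Promoter sequence was examined because the members moved together. RefSeq windows of 300 bases around each annotated start in build GRCr8, most of each lying before the start, were found for 34 of the 43 listed genes, in 38 windows. They are shown for a fast myosin that fell far (Myh4), the embryonic myosin that differed between controls (Myh3), skeletal actin (Acta1), desmin, which kept much of its signal in most tumors (Des), and an upstream and an internal start of a tropomyosin gene whose probe sets moved in opposite directions (Tpm3). Capitals mark matches, on either strand, to the MEF2 site, the CArG box bound by serum response factor, and the E-box CAGCTG. The windows lie at chr10:52421898-52422197 (plus strand, Myh4), chr10:52268935-52269234 (plus strand, Myh3), chr19:68784145-68784444 (minus strand, Acta1), chr9:84299376-84299675 (plus strand, Des), and chr2:177814633-177814932 and chr2:177821115-177821414 (plus strand, the upstream and a downstream start of Tpm3).
Myh4: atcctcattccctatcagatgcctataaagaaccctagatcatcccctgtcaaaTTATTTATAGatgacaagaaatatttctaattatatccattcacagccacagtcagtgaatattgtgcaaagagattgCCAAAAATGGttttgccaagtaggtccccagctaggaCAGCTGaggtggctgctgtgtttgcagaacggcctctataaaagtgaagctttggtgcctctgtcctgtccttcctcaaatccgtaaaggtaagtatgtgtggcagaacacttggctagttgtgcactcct
Myh3: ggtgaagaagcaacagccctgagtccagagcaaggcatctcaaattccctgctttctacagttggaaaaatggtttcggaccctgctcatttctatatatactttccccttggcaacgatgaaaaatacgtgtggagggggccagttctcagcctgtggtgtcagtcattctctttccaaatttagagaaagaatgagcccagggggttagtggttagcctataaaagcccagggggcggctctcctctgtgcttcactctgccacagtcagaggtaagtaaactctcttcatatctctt
Acta1: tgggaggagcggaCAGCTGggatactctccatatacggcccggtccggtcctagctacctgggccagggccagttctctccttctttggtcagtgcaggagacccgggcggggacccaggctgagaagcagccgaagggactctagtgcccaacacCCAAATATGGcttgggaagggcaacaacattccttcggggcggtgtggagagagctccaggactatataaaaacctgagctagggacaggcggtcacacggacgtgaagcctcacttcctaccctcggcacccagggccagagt
Des: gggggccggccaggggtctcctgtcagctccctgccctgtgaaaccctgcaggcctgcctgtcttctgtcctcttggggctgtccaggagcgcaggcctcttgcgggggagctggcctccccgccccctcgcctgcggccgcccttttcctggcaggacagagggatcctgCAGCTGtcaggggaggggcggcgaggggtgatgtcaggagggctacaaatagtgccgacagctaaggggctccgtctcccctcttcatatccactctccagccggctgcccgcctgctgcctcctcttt
Tpm3 upstream start: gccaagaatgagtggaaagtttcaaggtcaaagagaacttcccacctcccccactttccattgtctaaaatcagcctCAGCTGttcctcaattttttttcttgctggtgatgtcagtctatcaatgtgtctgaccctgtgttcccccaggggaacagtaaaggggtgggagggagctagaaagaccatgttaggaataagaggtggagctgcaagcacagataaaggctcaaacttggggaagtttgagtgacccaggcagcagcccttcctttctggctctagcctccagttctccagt
Tpm3 downstream start: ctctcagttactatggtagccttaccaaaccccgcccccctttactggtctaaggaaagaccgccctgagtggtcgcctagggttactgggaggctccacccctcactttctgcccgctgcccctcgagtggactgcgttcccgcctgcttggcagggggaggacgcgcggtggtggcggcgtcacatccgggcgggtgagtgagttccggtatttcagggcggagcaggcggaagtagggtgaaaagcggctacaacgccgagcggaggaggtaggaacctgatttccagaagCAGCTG

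In the Myh4 window all 3 motifs were present, at positions -196 (MEF2 site), -118 (CArG box) and -81 (E-box) counted from the start site. The Acta1 window held the E-box at -237 and the CArG box at -94, the Des window the E-box at -79, and the Myh3 window none of the 3. A MEF2 site was found in 8 of the 38 member windows (21.1%), against 3.29% of the 33469 windows of all genes. A CArG box was found in 4 (10.5%, against 1.64%), and the E-box in 14 (36.8%, against 15.1%). Overlapping windows of Tpm3 hold the same E-box and are both counted. By gene, the E-box was found in 12 of the 34 members with a window. These shares describe letters in a window of fixed length and are not evidence of binding. In RefSeq's gene order Myh3, Myh2, Myh1, Myh4 and Myh8 follow each other on chromosome 10, so that these 5 members are neighbors.

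The first comparison asked what was left of the sarcomere transcripts in the tumors. Of the 42 genes, 38 fell, 3 were higher and 1 was not called, where a call by limma's moderated test required both a fold change above 2 and a Benjamini-Hochberg adjusted p under 0.05. Over all 31042 probe sets 10.4% were called lower and 24.5% higher in the same comparison, or 34.9% in either direction. The median log2 fold change of the 42 genes was -8.82, against 0.34 for all probe sets. In 38 genes every tumor lay below every control, a pattern seen in 14.1% of all probe sets. These are not quite the 38 that fell, since Myh3 fell with overlapping groups and Myh8 was not called though its groups lay apart. In 3 genes every tumor lay above every control, against 28.1% of all probe sets. The falls ranged from -14.52 for Cmya5 to -1.95 for Myh1 on the log2 scale. The signal table carries no detection calls, and 20 of the 38 genes that fell had a tumor mean below 5 on the log2 scale, where differences are uncertain in size. With all values raised to a floor of 5 the median fall of the 38 was -8.36 instead of -9.2, and each was still called.

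**Figure D1:**
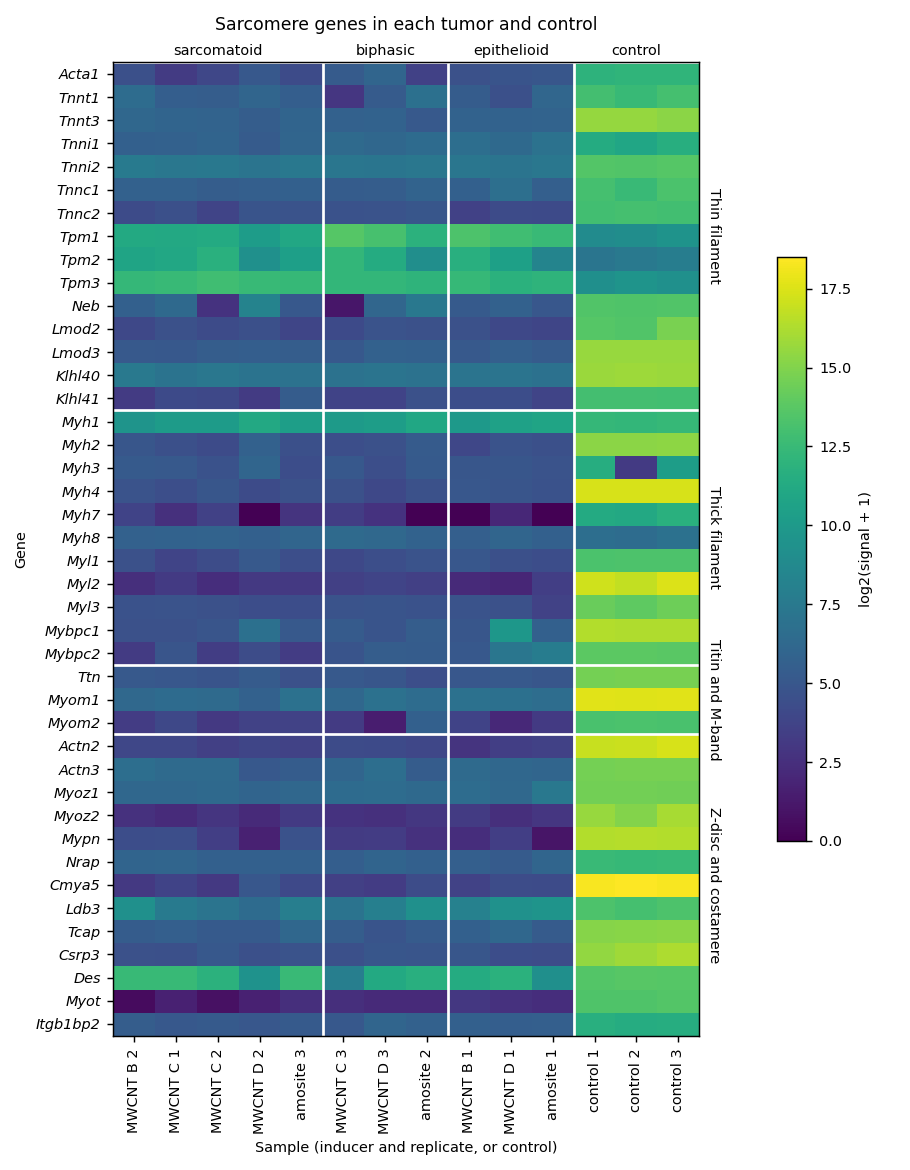
Color gives log2(signal + 1) of 42 sarcomere genes (rows, by role) in 11 tumors, ordered by tumor type, and 3 controls (columns). Most rows are bright in controls and dark in tumors, while Tpm1, Tpm2 and Tpm3 are brighter in tumors, Des and Myh1 keep an intermediate level in most tumors, Myh8 differs little and Myh3 is dark in control replicate 2. Levels are comparable along a row, not between rows.

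Thick filament genes carry the motor of the sarcomere. Of 11 measured genes 10 fell and Myh8 was not called, with a median log2 fold change of -9.51. Myh4, the heavy chain of the fastest fibers, had a lowest, median and highest log2 signal of 3.99, 4.61 and 4.99 in the tumors, against 17.39, 17.38 and 17.41 in the controls. It fell by 12.79 ± 0.18 (SE) on the log2 scale, with an adjusted p of 5.2e-16. Myh2, a fast heavy chain of oxidative fibers, spanned 3.92 to 5.78 in the tumors with a median of 4.55, against 15.30, 15.28 and 15.36 in the controls (log2 fold change -10.64). Neither gene's groups came near each other.

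Myh7, the slow heavy chain of skeletal muscle that is also used in the heart, had 0.01, 2.53 and 3.69 as its lowest, median and highest log2 signal in tumors, and 11.32, 11.17 and 11.73 in controls. Its log2 fold change was -9.51 ± 0.86, and -6.41 with the floor. The second Myh7 probe set, 1386993_at, had -12.24 ± 0.71, and -8.19 with the floor, so that the size of the fall depended on the probe set. Among the light chains, Myl1, an essential chain of fast fibers, spanned 3.82 to 5.17 in tumors (median 4.44), against 13.26, 13.33 and 13.31 in controls. Myl2, the slow and cardiac regulatory chain, spanned 1.96 to 3.81 in tumors (median 3.08), against 17.19, 16.82 and 17.49 in controls. At -14.20 ± 0.35 its log2 fold change was among the 3 largest falls. A second, dim Myl2 probe set (1388293_at) spanned 5.13 to 5.88 in tumors and 5.92 to 6.37 in controls and was not called. Myl3, the slow essential chain, spanned 3.63 to 4.79 in tumors (median 4.66), against 14.24, 13.89 and 14.43 in controls.

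The myosin binding proteins Mybpc1 (slow) and Mybpc2 (fast) brace the thick filament. Mybpc1 had a lowest, median and highest log2 signal of 4.57, 5.15 and 9.82 in tumors, and 16.35, 16.28 and 16.28 in controls (log2 fold change -10.67 ± 0.84, adjusted p 1.7e-07). Its highest value belonged to MWCNT D replicate 1, an epithelioid tumor, and the next highest, 6.84, to MWCNT D replicate 2. Mybpc2 had 3.22, 4.87 and 7.78 in tumors, against 13.83, 13.86 and 13.80 in controls (log2 fold change -8.84 ± 0.82).

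3 myosin heavy chains behaved differently from the rest of the thick filament. Myh1, a fast heavy chain, kept 9.57, 10.29 and 11.15 as its lowest, median and highest log2 signal in tumors, against 12.32, 12.24 and 12.42 in controls, and had the smallest of the called falls (-1.95 ± 0.28, adjusted p 4.4e-05). The probe set used for it (1377720_x_at) belongs to a type whose probes can match other sequences, the skeletal myosin heavy chains are close in sequence, and its value is therefore uncertain. Of the 5 Myh1 probe sets 4 were called lower, with log2 fold changes from -1.99 to -1.54, and 1377114_at was not (-0.77 ± 0.50). Myh3, the embryonic heavy chain found in forming and regenerating fibers, spanned 4.37 to 6.0 in tumors (median 4.98), while the controls stood at 11.51, 3.11 and 10.29. Control replicate 2 lay below all 11 tumors, so that the groups overlapped, and the fall (-3.31 ± 1.14, adjusted p 0.024) rested on 2 of the 3 controls. Without control replicate 1 the adjusted p was 0.24, and without control replicate 3 it was 0.16. Myh8, the perinatal heavy chain, spanned 5.60 to 6.43 in tumors (median 5.85), against 6.72, 6.52 and 6.88 in controls. Its groups did not overlap, but the log2 fold change of -0.80 ± 0.17 (adjusted p 0.0014) was short of a fold change of 2. It passed, at -1.24, when every array was centred on its median and, at -1.22, after quantile normalization.

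Thin filament genes included 12 that fell and 3 that were higher, of 15 measured. Acta1, skeletal muscle actin, had a lowest, median and highest log2 signal of 3.18, 4.57 and 6.04 in tumors, against 11.98, 12.13 and 12.08 in controls (log2 fold change -7.50 ± 0.45, adjusted p 9.5e-09). Neb, which encodes nebulin, was the most uneven of the thin filament genes among tumors. It spanned 1.12 (MWCNT C replicate 3) to 8.28 (MWCNT D replicate 2) with a median of 5.67, against 13.45, 13.40 and 13.45 in controls.

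The troponin complex binds calcium through troponin C, inhibits contraction through troponin I and holds both to tropomyosin through troponin T. All 6 troponin genes measured fell. The slow forms were measured as follows. Tnnt1 spanned 2.93 to 6.81 in tumors (median 5.55), against 12.94, 12.43 and 13.08 in controls. Tnni1 spanned 5.33 to 6.99 in tumors (median 6.19), against 11.38, 10.92 and 11.59 in controls, the smallest fall of the 6 (-5.14 ± 0.29). Tnnc1, which the heart also uses, spanned 5.41 to 6.73 in tumors (median 5.64), against 13.03, 12.54 and 13.24 in controls.

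The log2 fold changes of these slow forms were -7.35, -5.14 and -7.22, and those of the fast forms Tnnt3, Tnni2 and Tnnc2 were -9.67, -6.25 and -8.58. Whether fast and slow forms fell by different amounts was not tested. Tnnt3 spanned 5.20 to 6.17 in tumors (median 5.84), against 15.55, 15.54 and 15.32 in controls. Tnni2 spanned 7.12 to 7.54 in tumors (median 7.30), against 13.54, 13.51 and 13.60 in controls. Tnnc2 spanned 3.58 to 4.95 in tumors (median 4.49), against 12.93, 13.05 and 12.93 in controls. In each of the 6 genes the tumors lay at least 3 log2 units under the controls.

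Leiomodins start and lengthen thin filaments, and the kelch proteins Klhl40 and Klhl41 stabilize thin filament proteins. Lmod2, Lmod3, Klhl40 and Klhl41 had log2 fold changes of -9.66, -10.27, -8.66 and -8.89. Klhl40 stayed between 6.88 and 7.49 in the tumors, against 15.71, 15.81 and 15.73 in controls. No tumor reached a control in any of these 4 genes.

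Titin and the M-band proteins that crosslink thick filaments fell in 3 of 3 genes. Ttn spanned 4.45 to 5.34 in tumors (median 5.04), against 14.65, 14.69 and 14.67 in controls (log2 fold change -9.69 ± 0.17, adjusted p 3e-15). Myom1, or myomesin 1, fell by 11.13 on the log2 scale and Myom2, or myomesin 2, by 9.85. Myom2 was highest in amosite replicate 2, at 5.64, with the next tumor at 3.98.

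Z-disc and costamere genes fell in 13 of 13 cases, with a median log2 fold change of -9.73. Cmya5, which encodes myospryn, showed the largest fall of all 42 genes, with 3.07, 3.75 and 5.04 as its lowest, median and highest log2 signal in tumors, against 18.35, 18.43 and 18.30 in controls (-14.52 ± 0.35, adjusted p 1.2e-13). Actn2, the alpha-actinin of all skeletal fibers and the heart, spanned 2.78 to 4.20 in tumors (median 3.87), against 16.94, 17.01 and 17.38 in controls (-13.38 ± 0.24). Actn3, the alpha-actinin of fast fibers, spanned 5.08 to 6.70 in tumors (median 6.17), against 14.61, 14.68 and 14.67 in controls (-8.60 ± 0.31). These 3 genes had no tumor within 7 log2 units of a control.

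Further Z-disc genes with log2 fold changes under -8 were Myot (myotilin, -11.42), Mypn (myopalladin, -13.25), Myoz2 (the slow form of myozenin, -12.87), Myoz1 (its fast form, -8.16), Tcap (telethonin, -9.73) and Csrp3 (the muscle LIM protein, -11.18). Myoz2 spanned 2.17 to 3.19 in tumors (median 2.68), against 15.63, 15.06 and 16.05 in controls, and Myoz1 spanned 5.94 to 7.38 in tumors (median 6.32), against 14.54, 14.59 and 14.49 in controls. Nrap, which acts in early myofibril assembly, had -6.72, and Itgb1bp2, or melusin, had -6.12. Ldb3 encodes a PDZ-LIM protein of the Z-disc. The log2 signal of its chosen probe set was 6.49 at lowest, 7.96 at the median and 9.54 at highest in tumors, against 13.30, 13.07 and 13.30 in controls (-5.07 ± 0.59, adjusted p 7.4e-06). Its 5 other probe sets were all called lower, with log2 fold changes of -9.85 (1372737_at), -6.20, -6.12, -5.93 and -1.10, so that the size of the Ldb3 fall depended on the probe set.

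Des encodes desmin, the intermediate filament that ties Z-discs together and that smooth muscle and some mesenchymal cells also make. In tumors its log2 signal was 11.36 and 12.45 for MWCNT B, 12.48, 11.89 and 7.89 for MWCNT C, 11.81, 9.42 and 11.25 for MWCNT D, and 9.22, 11.69 and 12.53 for amosite, against 13.57, 13.69 and 13.60 in controls. Every tumor lay below every control, but 8 tumors stayed above 11 and only MWCNT C replicate 3 fell under 9. The fall was -2.53 ± 0.85 with an adjusted p of 0.021, and it passed no longer when any 1 of the 3 controls was left out (adjusted p 0.062 to 0.065). Of the 10 smooth muscle and myofibroblast markers 1 was higher (Acta2), 3 were lower and 6 were not called. Among all probe sets 24.5% were called higher and 10.4% lower. The summed signal of the 10 markers was 3440 to 11800 in tumors, against 11100 to 11500 in controls. None of the 10 was below a log2 signal of 1 throughout either group. The part of such cells in the desmin signal was not tested.

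The 3 members with higher signal in tumors were tropomyosins, which lie along actin in muscle and nonmuscle cells. Probe sets were chosen by their mean over 14 arrays, of which 11 were tumors. For genes with several probe sets this rule favors one that is high in tumors. The counts of higher members, here and by inducer and tumor type, rest on the chosen probe sets. Tpm1 had a lowest, median and highest log2 signal of 10.26, 11.89 and 13.63 in tumors, against 8.91, 9.10 and 9.48 in controls (log2 fold change 2.88 ± 0.62, adjusted p 0.0013). Tpm2 had 8.32, 10.77 and 12.26 in tumors, against 7.16, 7.49 and 7.86 in controls (3.09 ± 0.69, adjusted p 0.0017). Tpm3, the slow tropomyosin gene of muscle, had 11.82, 12.33 and 12.84 in tumors, against 9.18, 9.59 and 9.32 in controls (2.94 ± 0.18, adjusted p 1e-08).

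Other probe sets of the same 3 genes moved the opposite way. Of 7 Tpm1 probe sets 2 were called higher, 4 lower and 1 not. The 4 lower ones had log2 fold changes from -6.28 (1371241_x_at) to -2.52 (1395794_at). Of the 2 higher ones, 1371240_at read 0.56, 0.19 and 0.00 in controls and lost all but 0.23 of its rise with the floor. The second Tpm2 probe set, 1392976_at, spanned 6.21 to 6.81 in tumors, against 16.79 to 16.86 in controls, a fall of 10.33 ± 0.15 with an adjusted p of 5.1e-16. The fall of that probe set was of the size seen for Lmod3 and Myh2, while the probe set chosen for the gene was higher in every tumor.

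Tpm3 was covered by 12 probe sets, of which 10 were higher, 1 lower and 1 not called. The lower one, 1376929_at, spanned 5.01 to 5.82 in tumors, against 11.64, 11.06 and 11.99 in controls (-6.19 ± 0.19, adjusted p 2.2e-12). Of the 42 members 12 had more than 1 probe set, 5 of these had probe sets of different calls, and the tropomyosins were the 3 with calls in both directions. Of all 77 member probe sets 59 were lower, 13 higher and 5 not called. Which transcripts each probe set reads was not determined, as no genome or transcript sequence was used here.

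**Figure D2:**
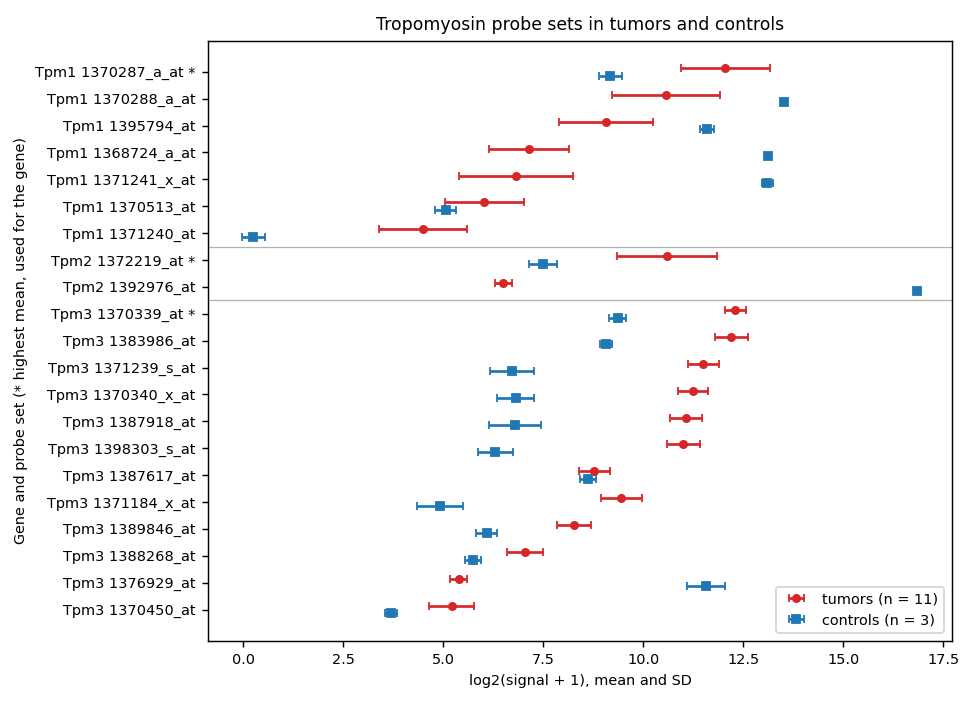
Mean log2(signal + 1) with SD (horizontal axis) of each Tpm1, Tpm2 and Tpm3 probe set (rows) in 11 tumors and 3 controls. The probe set used for each gene is higher in tumors, and Tpm1 has 4, Tpm2 1 and Tpm3 1 probe sets that are lower in tumors. Tumors and controls are comparable within a row only.

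The residual signal of each tumor was expressed as a percent of the mean control signal of the same gene. Over the 38 genes that fell, the median residual lay between 0.124% (MWCNT C replicate 2) and 0.218% (MWCNT D replicate 1) in the 11 tumors. Over all 42 genes it lay between 0.146% and 0.258%, with a median over tumors of 0.208%. On each tumor array the median rank of the 38 genes was between the 16.4th and 22nd percentile of all probe sets, against 99.6 to 99.7 on the control arrays. The 42 genes held 0.0691% to 0.151% of the total signal of a tumor array, against 7.82% to 8.68% of a control array. That share includes Tpm1, Tpm2 and Tpm3, which were higher in tumors, and is therefore not only signal left of the genes that fell. By the median residual over the 38 genes, no tumor stood out as rich in sarcomere transcripts.

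In 24 of the 38 genes no tumor exceeded 1% of the control mean. The number of genes above 1% was 7 to 10 per tumor, and above 5% it was 1 to 3. The genes above 5% were Myh1 in all 11 tumors, Des in 9 and Ldb3 in 4. Des reached 47.1% in amosite replicate 3 and was 1.87% in MWCNT C replicate 3. The chosen Ldb3 probe set reached 7.77% in amosite replicate 1, and Myh1 44.1% in MWCNT D replicate 2. Tnni1, Tnni2, Myh3 and Itgb1bp2 lay between 1% and 5% in all 11 tumors. For Myh3, control replicate 2 (log2 signal 3.11) lay below every tumor, so that its percent does not hold against that control. The second Tnni1 probe set, 1371339_at, had a log2 fold change of -6.76 instead of -5.14, so that the Tnni1 percent depends on the probe set. Whether the residual values lie above background was not tested.

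Single genes stood out in single tumors. Mybpc1 was at 1.11% of the control mean in MWCNT D replicate 1, against 0.0281% to 0.141% in the other 10 tumors. Neb ranged among tumors from 0.0106% (MWCNT C replicate 3) to 2.8% (MWCNT D replicate 2), with amosite replicate 2 next at 1.57%. Another Neb probe set, 1394666_at, was lowest and highest in the same tumors, with log2 signals of 0.07 and 5.22. In a further one, 1377953_at, the tumors spanned only 3.76 to 4.4. Mybpc2 was at 1.5% in amosite replicate 1 and 1.04% in MWCNT D replicate 1. The second Mybpc2 probe set, 1376968_at, had log2 signals of 3.52 and 3.48 there, within the 3.38 to 4.2 of all tumors. Acta1 was highest in MWCNT D replicate 3, at 1.51%. The tumor with the highest value differed from gene to gene, with MWCNT D replicate 2 and replicate 3 highest in 7 genes each and MWCNT C replicate 1 in 0 of 38. The range among the 11 tumors was 1.5 log2 units at the median over the 38 genes, near the 1.34 of all probe sets.

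**Figure D3:**
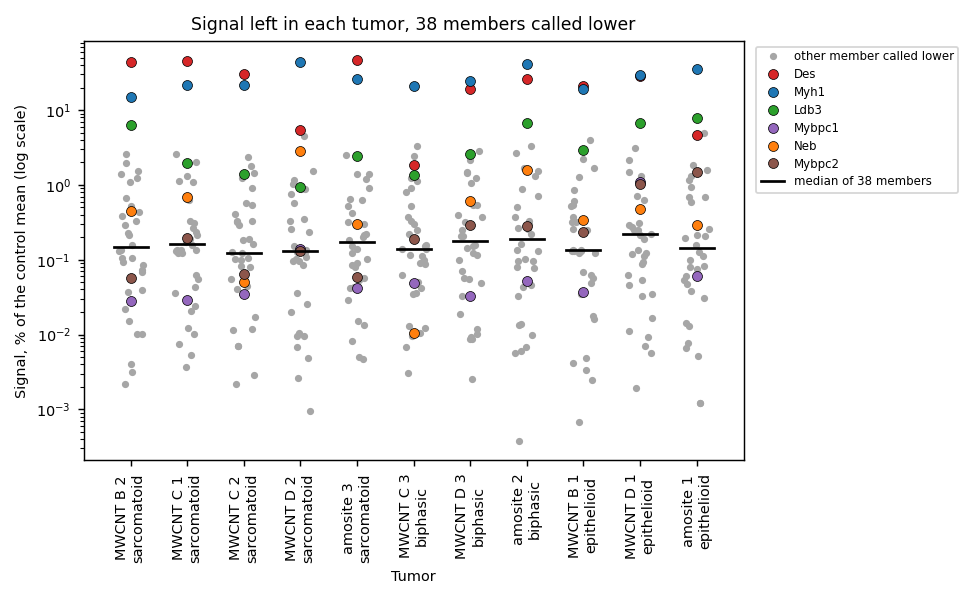
Each point is 1 of the 38 genes lower in tumors, as percent of its mean control signal (log scale), in each of 11 tumors by tumor type; black bars are medians over the 38 genes. Medians lie between 0.124% and 0.218%, Des and Myh1 are the highest points in most tumors, and Mybpc1 lies above 1% only in MWCNT D replicate 1.

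2 tumors carried strong pancreatic enzyme signal. The 8 acinar genes summed to a signal of 646000 for MWCNT D replicate 2 and 848000 for amosite replicate 1, while no other tumor exceeded 1760 and no control exceeded 606. Without these 2 tumors 41 members were called, as with them. The part of this tissue in single high values of these 2 tumors was not tested.

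By inducer the counts differed little. Against controls, MWCNT B tumors had 37 genes lower and 3 higher (all probe sets 9.39% and 20.8%, 30.1% in either direction), MWCNT C tumors 36 and 3 (10.2% and 21.9%, 32.1%), MWCNT D tumors 36 and 3 (10.2% and 22.4%, 32.6%), and amosite tumors 36 and 3 (9.51% and 22.3%, 31.8%). The 3 higher genes were Tpm1, Tpm2 and Tpm3 under every inducer. Des and Myh3 were called under none of the 4, with log2 fold changes of -2.87 to -1.71 for Des and -3.51 to -3.19 for Myh3, and Myh8 was called for MWCNT B alone (-1.04 ± 0.24, adjusted p 0.006). All 4 comparisons share the same 3 controls. Median log2 fold changes of the 42 genes were -9.12 for MWCNT B, -9.12 for MWCNT C, -8.66 for MWCNT D and -8.80 for amosite.

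The direct comparison of the 8 MWCNT tumors with the 3 amosite tumors called 0 of 42 genes, and 0% of all probe sets, by limma at the threshold given. At an unadjusted p below 0.05 stood 4 of the 42 genes and 1600 of 31042 probe sets. The 4 were Tpm2, Ttn, Klhl41 and Myl3. Tpm2 had the largest difference of these, averaging 11.08 ± 0.93 in MWCNT tumors and 9.29 ± 1.06 in amosite tumors (SD, n = 8 and 3), a log2 difference of 1.79 ± 0.55 with a limma adjusted p of 0.94.

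By tumor type, sarcomatoid tumors had 36 genes lower and 3 higher than controls (all probe sets 10.9% and 23.3%, 34.2% in either direction), biphasic tumors 37 and 3 (10.2% and 24%), and epithelioid tumors 37 and 3 (9.64% and 24.6%). Des was called lower in biphasic tumors (-3.35 ± 1.04, adjusted p 0.019) and epithelioid tumors (-2.83 ± 1.04, adjusted p 0.041), and in sarcomatoid tumors it had a log2 fold change of -1.87 ± 0.93 with an adjusted p of 0.11. The difference in Des between tumor types was itself not past the threshold, with an adjusted p of 0.72 for sarcomatoid against epithelioid and 0.69 for sarcomatoid against biphasic tumors.

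Between tumor types 2 genes were called, both lower in sarcomatoid than in epithelioid tumors. Over all probe sets 0.689% were lower and 0.0709% higher in that comparison, or 0.76% in either direction. Tpm1 had 11.25, 11.18, 11.33, 10.26 and 11.07 in the 5 sarcomatoid tumors, and 13.34, 12.85 and 12.57 in the 3 epithelioid tumors, a log2 difference of -1.90 ± 0.37 with a limma adjusted p of 0.038. The groups did not overlap. The same held within each inducer that had both types, at 11.25 against 13.34 for MWCNT B, 10.26 against 12.85 for MWCNT D and 11.07 against 12.57 for amosite. All 7 Tpm1 probe sets had lower values in sarcomatoid tumors, from -2.27 to -1.43, and 3 of them were called. They are annotated to the same gene, were read on the same arrays and are not independent.

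Mybpc2 had 3.22, 4.87, 3.38, 4.32 and 3.28 in sarcomatoid tumors, and 5.12, 7.26 and 7.78 in epithelioid tumors, a log2 difference of -2.91 ± 0.54 with a limma adjusted p of 0.033. The sarcomatoid values all lay below 5, where the array's lower range makes size uncertain, and with the floor the difference was -1.72 with an adjusted p of 0.13. A second Mybpc2 probe set, 1376968_at, averaged 3.74 ± 0.32 in sarcomatoid tumors and 3.47 ± 0.06 in epithelioid tumors (SD, n = 5 and 3) and did not carry the difference. Both calls were lost when only the compared groups entered the fit, without any 1 of the controls, and without any 1 of MWCNT B replicate 2, MWCNT C replicate 2, MWCNT D replicate 1, amosite replicate 1 and amosite replicate 3. Tpm1 was also lost without MWCNT B replicate 1 or MWCNT C replicate 1. Leaving out MWCNT D replicate 1 gave an adjusted p of 0.13 for Tpm1 and 0.14 for Mybpc2, and leaving out amosite replicate 1 gave 0.12 and 0.17.

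Sarcomatoid against biphasic tumors called 0 of 42 genes (all probe sets 0.235% lower, 0.0129% higher and 0.248% in either direction), with 6 genes and 2882 of all 31042 probe sets at an unadjusted p below 0.05. Tpm1 had 13.63, 13.15 and 11.89 in biphasic tumors, so that it was lower in all 5 sarcomatoid tumors than in each of these, with a log2 difference of -1.87 ± 0.37 and a limma adjusted p of 0.065. It was the 1 gene called when amosite replicate 2 was left out. Biphasic against epithelioid tumors called 0 of 42 genes and 0% of all probe sets, with 5 genes and 1548 of all 31042 probe sets at an unadjusted p below 0.05. Ldb3 averaged 7.66 ± 1.03 in sarcomatoid, 8.10 ± 1.15 in biphasic and 9.01 ± 0.75 in epithelioid tumors (SD, n = 5, 3 and 3), and was called in none of the comparisons between types. Of the 5 other Ldb3 probe sets 1, 1372737_at, was called lower in sarcomatoid than in epithelioid tumors, at -2.64 ± 0.44 with a limma adjusted p of 0.024. Its values were 0.01 to 2.25 in sarcomatoid and 3.51 to 4.89 in epithelioid tumors. All lay below 5, where differences are uncertain in size.

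**Figure D4:**
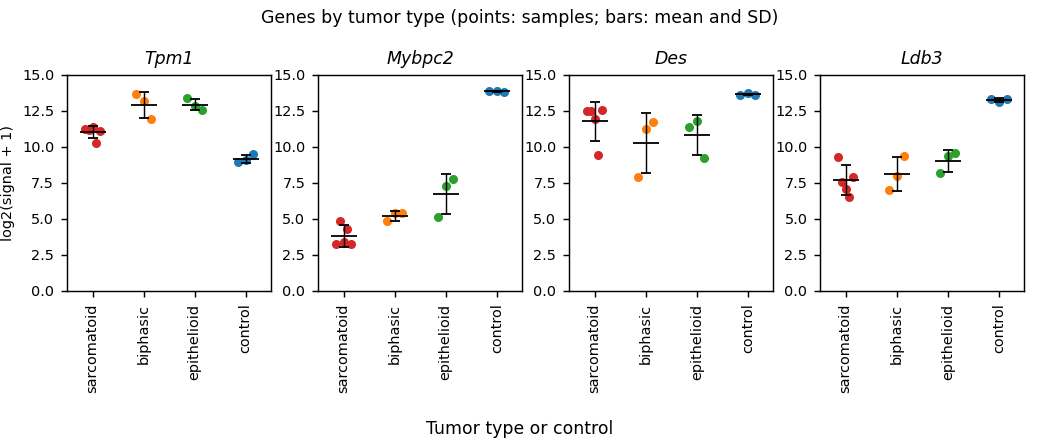
Log2(signal + 1) of Tpm1, Mybpc2, Des and Ldb3 in each sarcomatoid (n = 5), biphasic (n = 3) and epithelioid tumor (n = 3) and each control (n = 3), with mean and SD. Tpm1 and Mybpc2 are lower in sarcomatoid than in epithelioid tumors without overlap, while Des and Ldb3 overlap between the types.

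The controls were then examined for their fast and slow isoforms. Apart from the chosen Tpm3 probe set, both sets had a log2 signal above 10 in all 3 controls, as were genes of all fiber types such as Actn2, Ttn and Neb. The 10 fast isoform genes hardly differed among the controls, with a median range of 0.08 log2 units (0.03 for Myh4 to 0.23 for Tnnt3). The 9 slow isoform genes had a median range of 0.65, against 0.16 for all 3427 probe sets with a control mean of at least 10. With 3 arrays no test among controls was made.

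The slow isoforms differed in the same direction. Control replicate 2 was lowest in 8 of the 9 slow genes and control replicate 3 highest in 7, against 27.5% and 19.3% of all probe sets with a control mean of at least 10. Of the 10 fast genes control replicate 2 was lowest in 4 and control replicate 3 highest in 4. Of all 42 genes, slow ones included, control replicate 2 was lowest in 22 (52.4%) and control replicate 3 highest in 21 (50%). Relative to their own control means, replicates 1, 2 and 3 stood at 0.05, -0.52 and 0.47 for Myoz2, at 0.09, -0.40 and 0.31 for Tnnc1, at 0.08, -0.38 and 0.29 for Tnni1 and at 0.12, -0.38 and 0.26 for Tnnt1. The corresponding values were 0.02, -0.35 and 0.33 for Myl2, 0.05, -0.29 and 0.24 for Myl3 and -0.08, -0.24 and 0.32 for Myh7. Mybpc1 counts among the 8 but was nearly level, at 0.05, -0.02 and -0.02. The Tpm3 probe set with the highest mean ran against the others, at -0.18, 0.22 and -0.04.

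Probe sets of slow genes that were not chosen repeated the pattern where their control mean was at least 10. Most of the other Tpm3 probe sets, with lower control means, were not lowest in control replicate 2. For 1383986_at controls 1, 2 and 3 read 8.91, 9.22 and 9.04. In Tpm3 the probe set that was lower in tumors, 1376929_at, read 11.64, 11.06 and 11.99 in controls 1, 2 and 3. The second Tnni1 and Myh7 probe sets read 12.41, 11.81 and 12.71 and 13.38, 12.77 and 13.41. With the chosen ones included, 11 probe sets of slow genes had a control mean of at least 10. Control replicate 2 was lowest in 11 of these and replicate 3 highest in 10. Among 16 such probe sets of fast genes control replicate 2 was lowest in 5 and replicate 3 highest in 4. Several of these are probe sets of the same gene on the same 3 arrays and are not independent.

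**Figure D5:**
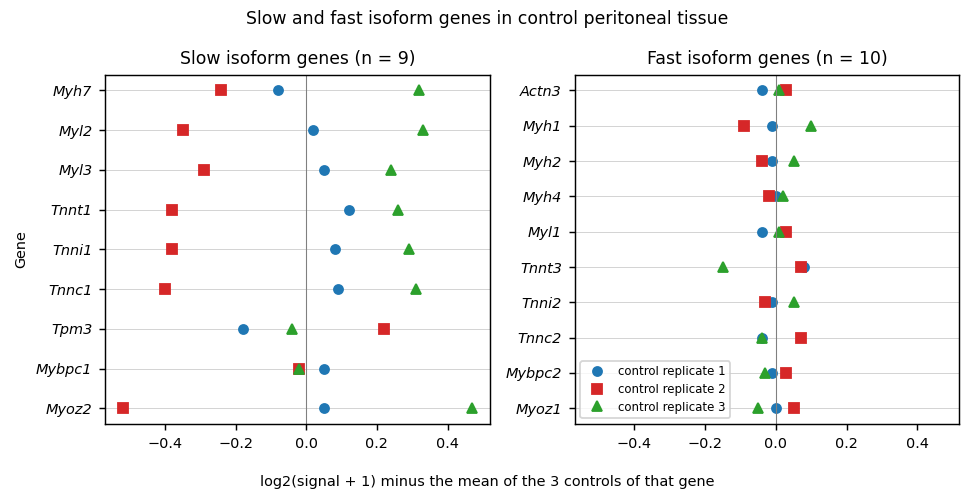
Deviation of log2(signal + 1) from the mean of the 3 controls of that gene (horizontal axis) for 9 slow and 10 fast isoform genes (rows); each marker is 1 control. Control replicate 2 lies lowest in 8 slow genes, with Tpm3 as the exception, and the fast genes stay within a range of 0.23.

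Genes outside the fast and slow classes also separated the controls. Myh3 was at 3.11 in control replicate 2, against 11.51 in replicate 1 and 10.29 in replicate 3, the widest range of the 42 genes (8.41). Lmod2 stood at 13.59, 13.49 and 14.78 and Csrp3 at 15.51, 15.85 and 16.23, both highest in control replicate 3, as was Actn2. Des, Ttn, Neb and Mypn differed by at most 0.12. The 2 measured satellite cell markers, Cdh15 and Chrdl2, were lower in tumors than in controls, with log2 fold changes of -1.77 and -1.55. Of 5 markers of the neuromuscular junction and immature fibers 1 was higher in tumors, Ncam1 (3.87 ± 0.83). Another 2 were lower, Chrnd (-1.62) and Musk (-1.37), and 2 were not called, Chrna1 and Chrng. Among all probe sets 10.4% were called lower and 24.5% higher.

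Other muscle genes were counted as lists, to be read beside the 24.5% of all probe sets called higher and the 10.4% called lower in tumors. Of 22 measured further Z-disc and M-band genes (27 listed) 20 fell and 2 were not called, with Smpx (-12.18 ± 0.14), Trim54 (-10.22), Tmod4 (-9.96) and Myoz3 (-9.09) as the largest. Of 6 measured myogenic transcription factors (9 listed) 5 fell, Myf6 (-9.57), Myod1 (-8.19), Myog (-6.06) and Mef2c (-3.38) among them. Myf6, Myod1 and Myog drive muscle differentiation. Their medians, -6.43 and -4.72, compare with -8.82 for the sarcomere genes and 0.34 for all probe sets.

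Of the 7 measured cardiac isoform genes (8 listed) 2 were called, near the 34.9% of all probe sets called in either direction. Myl4, the atrial and embryonic light chain, was lower (-1.81) and Mybpc3 higher (1.37). The Myl4 groups overlapped, with 4.86 to 6.2 in tumors, against 9.8, 6.02 and 5.64 in controls. Only control replicate 1 lay above every tumor. Tnni3, cardiac troponin I, was 15.01 in amosite replicate 1, against 7.61 ± 0.18 in controls (SD, n = 3), and its tumor median was 5.22. Of 12 measured nonmuscle paralogs (14 listed) 7 rose and 2 fell, against 24.5% higher and 10.4% lower among all probe sets, with a median log2 fold change of 1.71. Actn1 (3.72), Actn4 (3.11) and Tpm4 (2.98), the nonmuscle actinins and a nonmuscle tropomyosin, rose, and Lmod1, the smooth muscle leiomodin, fell by 5.41.

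The labelled tissues were checked with markers. Of 10 measured mesothelial markers (12 listed) 8 were higher in tumors and 2 not called, with a summed signal of 2100 to 54800 in tumors and 470 to 901 in controls. The 2100 belonged to MWCNT D replicate 2, which stood apart from the other 10 tumors (8700 or more) and was the lowest tumor for Wt1 (7.08) and Msln (7.92). It is also 1 of the tumors with pancreatic signal, without which the counts of sarcomere genes lower and higher stayed at 38 and 3. In controls the keratins Krt18 and Krt19 averaged 1.83 and 2.82 and Wt1 4.14 on the log2 scale, with Krt19 at 0.07, 2.89 and 5.5. The 2 markers not called, Lrrn4 and Calb2, averaged 7.73 and 7.38 in controls, against 10.51 and 7.44 in tumors. Relative to the tumors, the control tissue therefore had high signal of most sarcomere genes and low signal of the 8 called mesothelial markers. The 8 adipocyte markers were called in neither direction, with a summed signal of 1210 to 26600 in tumors and 9430 to 15900 in controls. Median signal per array was 129 to 154 in tumors, against 96.9 to 104 in controls, and the log2 ratio of the 3' to the 5' beta-actin control probe sets was 0.3 to 0.6 in tumors, against -1.24 to -0.65 in controls. The same ratio for Gapdh was -0.03 to 0.18 in tumors and 0.1 to 0.16 in controls. The part of muscle content and RNA integrity in the falls was not tested. Array scaling was varied by quantile normalization and by centring arrays on their median. Under these Myh8 was the only member whose call between all tumors and controls changed.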

How the data were processed

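Per the methods, the authors hybridized RNA to 14 Affymetrix GeneChip rat genome arrays, applied the quality control of the Transcriptome Analysis Console and normalized the intensities with PLIER, both tools also named in the submitters' processing notes. The deposited linear intensities were used as given. After removal of 57 Affymetrix control probe sets, 31042 remained, of which 20826 had 1 gene symbol, 436 several and 9780 none. Symbols came from the platform annotation, and probe sets annotated to several genes, among them 3 of myosin heavy chains, were not used for members.

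For log2(signal + 1) of all probe sets, limma 3.58.1 (R 4.3.3) gave moderated tests of 12 comparisons: tumors, 4 inducers and 3 tumor types against controls, the tumor types against each other, and MWCNT against amosite. P-values were adjusted by Benjamini-Hochberg over all probe sets. Calls needed a fold change above 2 with the adjusted p under 0.05. The fit was tested on simulated data. Replicates are biological per the labels.

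The members, isoform classes and lists were chosen with earlier results of these data known. Every member was named. The values of each control, with the lowest, median and highest tumor or each tumor, were given for isoform genes, Ttn, Neb, Des, the 3 largest and smallest falls, members not called lower and members called between tumor groups, and up to 4 genes per other list by size of change. Alternatives were quantile normalization, median centring, another pseudocount, a floor, a filter, trend and robust moderation, another probe set, a replicate block, fits of only the compared groups, and leaving out arrays.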

Additional observations from a re-analysis of the deposited data

Results flagged for a closer look

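Among 84 groups examined (each of the 42 genes in the 5 sarcomatoid and the 8 MWCNT tumors), 7 samples lay far from the rest of their group by Dixon's test, and chance flags about 1 group in 20. MWCNT D replicate 2, 1 of the 2 tumors with pancreatic enzyme signal and the lowest in mesothelial markers, accounted for 5 of them. Among MWCNT tumors it was lowest for Actn3 (5.08, the others 6.03 to 6.70) and for Myl3 (4.34, the others 4.59 to 4.79). Among sarcomatoid tumors it was lowest for Tpm1 (10.26, the others 11.07 to 11.33) and Des (9.42, the others 11.89 to 12.53), and highest for Mybpc1 (6.84, the others 4.57 to 5.15). MWCNT D replicate 1 was highest among MWCNT tumors for Tnnc1 (6.73, the others 5.41 to 5.77) and for Mybpc1 (9.82, the others 4.57 to 6.84).

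A difference between tumor types was called for Tpm1 (log2 difference -1.90, sarcomatoid minus epithelioid, of the same sign in all 7 probe sets and called in 3) and for Mybpc2 (-2.91, not shown by the second probe set). Neither was tested for its cause.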

How the results depend on the processing

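The counts of members called between tumors, by inducer or type, and controls stayed within 1.5 times under every alternative run. For all tumors, 39 to 41 were called when 1 array was left out, with 36 to 38 lower. Of the 42 genes, 36 kept call and direction under all their alternatives. The exceptions were Des, Myh3 and Myh8 as given above, and Myh1 (-0.77), Myl2 (-0.63) and Tpm2 (reversed, -10.33) with the probe set of lowest mean. The 2 calls between sarcomatoid and epithelioid tumors became 1 with centred arrays (Mybpc2). With the probe sets of lowest mean both were lost (Tpm1 -1.63, adjusted p 0.16, and Mybpc2 0.27, adjusted p 0.56). The 1 call was then Ldb3 (-2.64), where every tumor value lay below 5. The count was 0 with the floor, the replicate block, only the compared groups, or without the tumors with pancreatic signal; leaving out 1 array gave 0 to 2, and 0 without any 1 of the controls. Sarcomatoid against biphasic tumors gave 0 to 1 with 1 array left out. The cause was not tested. The replicate block changed no other count by over 1.5 times, with 41 members called for all tumors against controls. Replicate numbers are not stated to pair samples, same-numbered samples had a median correlation of 0.015 (26 pairs, 6 above 0.1), and every number was therefore treated as a name. The median residual of 0.208% was 0.287% after quantile normalization, 0.317% with the floor and 0.161% with arrays scaled to 1 median, and 0.203% to 0.213% with 1 control left out, which was chosen after seeing the data. Over all probe sets the median change was 0.34 on the log2 scale, -0.10 with centred arrays and -0.02 after quantile normalization. Of the 9 slow genes 8 were lowest in control replicate 2, and 7 to 9 under 3 alternatives chosen after seeing the data. Without detection calls, tumor values below about 5 bound the falls only loosely.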
